A study of Homo sapiens with 14 samples.

Results

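MALAT1 is the RNA named in the guide label of the DECOR libraries, and NEAT1 is a long noncoding RNA gene near it on chromosome 11. Sites were taken as members when they lay in the hg19 span of MALAT1 (chr11:65265233-65273940, 8708 bases) or in that of NEAT1 (chr11:65190269-65213011, 22743 bases). Of 26172 distinct sites in the 14 lists, 1 lay in the MALAT1 span and 0 in the NEAT1 span. The MALAT1 site, chr11:65267590, was listed by both DECOR libraries and by no other library.

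Both genes make long RNAs that are not translated and that stay in the nucleus. MALAT1 RNA is abundant in most cell lines and collects in nuclear speckles, bodies rich in splicing factors. Its end is cut by RNase P, which frees the small mascRNA and leaves an A-rich stretch held in an RNA helix in place of an ordinary poly(A) tail. NEAT1 RNA is the scaffold of paraspeckles, and has a short polyadenylated form and a long form whose end is made in the way of MALAT1. RefSeq (GRCh38.p14, used here for names, gene types and gene order) gives both as lncRNA genes and places the antisense gene TALAM1 and the mascRNA gene across the MALAT1 locus. Between NEAT1 and MALAT1 it places the transcribed pseudogene FAUP4 and the lncRNA genes ENEMAL and LINC02736.

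Each list held the adenosine positions of 1 library that read as guanosine, with the A-to-G rate, a fraction from 0 to 1 taken as the editing level. All libraries came from polyadenylated RNA of HEK293T cells, an easily transfected human embryonic kidney line, and all carried an RNA base editor, a protein meant to turn adenosine into inosine, which sequencing reads as guanosine. The 7 groups of 2 libraries were DECOR with the MALAT1 guide, dCas13d-ADAR with the EZH2 guide, dCas13d-ADAR with the NT guide, REPAIR.t1 with the EZH2_A22 guide, REPAIR.t1 with the NT guide, REPAIRv2 with the EZH2_A22 guide and REPAIRv2 with the NT guide (Repair.t1 and Repair.v2 in the sample titles). The labels give no cells without an editor, and do not say how the editors were delivered, where on MALAT1 the guide lies or whether the 2 libraries of each group are separate cultures. DECOR libraries were read for 62 and 160 cycles and all others for 25 and 97, and DECOR was run with the MALAT1 guide alone, so in any comparison with DECOR the editor, the guide and the length of the reads cannot be told apart.

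The lists were of similar length for 3 of the 4 editors. DECOR lists held 5516 and 5855 sites, dCas13d-ADAR lists 5730 to 5834, REPAIR.t1 lists 4356 to 4784 and REPAIRv2 lists 46 to 101. On chromosome 11, DECOR libraries listed 358 and 405 sites, dCas13d-ADAR libraries 394 to 424, REPAIR.t1 libraries 271 to 331 and REPAIRv2 libraries 1 to 8. The lists hold no read counts, coverage, strand or gene expression. Read depth over MALAT1 and NEAT1 is therefore unknown, no counting interval can be given, and the labelled cell line could not be checked against expressed markers.

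The MALAT1 site was edited at a level of 0.273 in DECOR MALAT1 replicate 1 and 0.231 in DECOR MALAT1 replicate 2, a mean of 0.252 ± 0.0297 (SD, n = 2). It is base 2358 of the MALAT1 span, 27.1% of the way from the lower coordinate to the higher. The 4 dCas13d-ADAR, 4 REPAIR.t1 and 4 REPAIRv2 libraries listed no site in the span, whichever guide they carried. A library can lack a position because it was not edited, because its level was under the threshold for listing or because few reads covered it, so the 12 missing values are not levels of 0. No sequence of the hg19 build was used, so the bases around the site are not shown, and whether it lies in an exon of every MALAT1 transcript was not analysed here. Without strand in the lists, MALAT1 RNA and RNA of the antisense gene TALAM1 cannot be told apart as its source.

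DECOR libraries listed 1 and 1 sites in the MALAT1 span, against 0 in each of the 12 libraries of the other editors. The difference was 1 site per library. A two-sided exact permutation test of 2 libraries against 12 gave p = 0.022, the smallest that 91 arrangements allow. This test takes the 14 libraries as separate units, although they form 7 groups of 2 and DECOR is 1 of these groups. It therefore cannot settle a difference between editors. As a share of the list, the site was 0.0181% and 0.0171% of the DECOR lists and 0% of the other 12 (exact permutation p = 0.022). With 0 in the other 12 libraries, this p had to equal that of the test of numbers, so it adds no support. Against dCas13d-ADAR, REPAIR.t1 and REPAIRv2 one at a time, the difference was also 1 site, with exact permutation p = 0.133 for each (0.133 after Benjamini-Hochberg adjustment over the 3 editors), the smallest p that 2 libraries against 4 allow. Set against the 6 NT libraries alone, the exact permutation p was 0.0714, again the smallest possible.

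Many other sites were listed in the same way. Of all 26172 distinct sites, 1972 (7.53%) were listed by both DECOR libraries and by no library of another editor, and each of them would give the same p. The test does not set the MALAT1 site apart from these sites. Of the 2067 sites listed by both DECOR libraries, only 95 were also listed by a library of another editor. Absence from the lists of the other editors was thus the usual case for a site shared by both DECOR libraries, and was not particular to MALAT1. The genome was also divided into windows of the MALAT1 span's length, aligned so that the span was 1 window. Among the 7313 windows with a site in any library, 496 (6.78%) held more sites in both DECOR libraries than in each of the other 12, and the MALAT1 window was 1 of them.

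**Figure D1:**
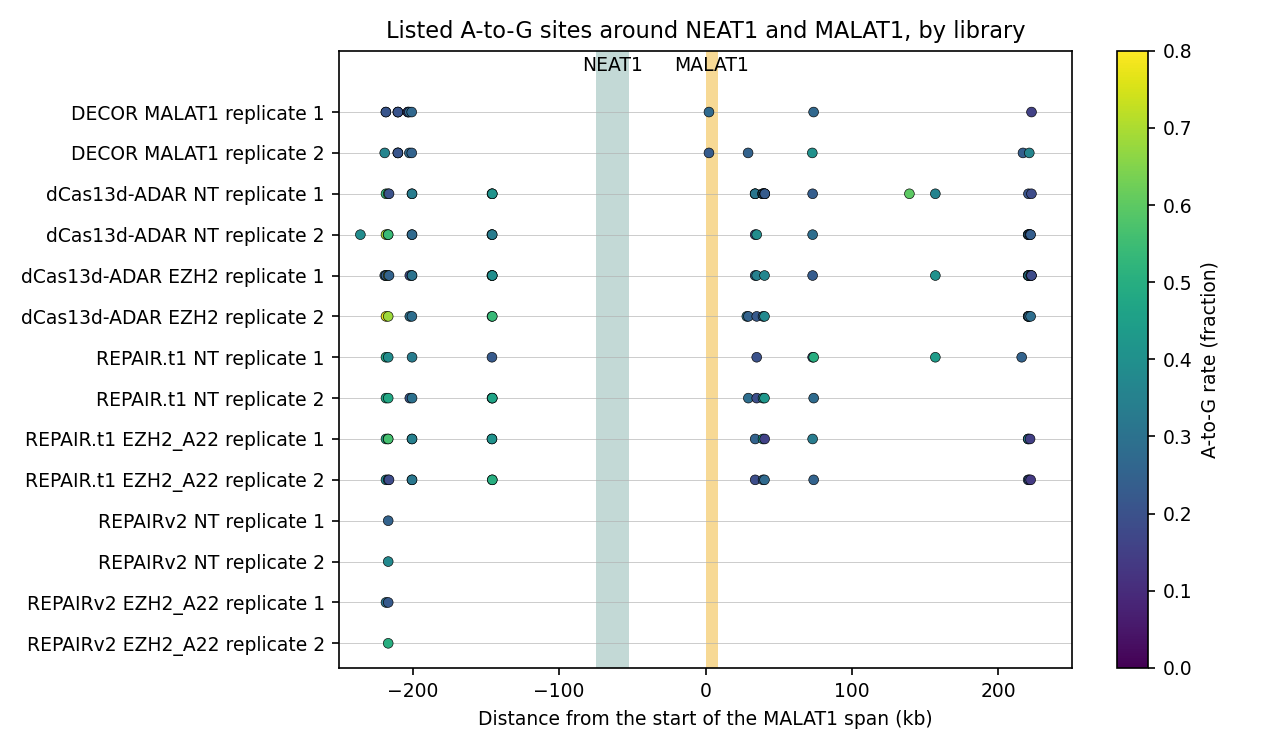
Listed A-to-G sites within 250 kb of the start of the MALAT1 span, 1 row per library and 1 point per site, coloured by A-to-G rate (fraction); the x axis is the distance from the start of the span in kb and the shaded bands are the NEAT1 and MALAT1 spans. The NEAT1 band is empty in all 14 rows and the MALAT1 band holds 1 point in each of the 2 DECOR rows.

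The NEAT1 span, 2.61 times as long as that of MALAT1, held 0 listed sites in the DECOR libraries and 0 in the other 12. With all 14 values equal, the exact permutation test returned p = 1 and carries no information on a difference. The same held in both spans for dCas13d-ADAR against REPAIR.t1 and for EZH2 guides against NT guides, where each of the 12 libraries listed 0 sites. For NEAT1 RNA the lists thus give no editing level in any library.

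The nearest listed positions on either side of the 2 genes came from libraries of editors other than DECOR. The nearest listed position below the NEAT1 start was chr11:65119682, 70587 bases away, found in 3 dCas13d-ADAR and 2 REPAIR.t1 libraries at levels of 0.393 to 0.538. The nearest above the MALAT1 end was chr11:65293450, 19510 bases away, found in 1 dCas13d-ADAR EZH2 library at 0.333. The 173768 bases between these positions hold both genes and the 52221 bases that separate them. Across this stretch the MALAT1 site was the only position in any of the 14 lists. The length of the stretch was not compared with gaps between listed sites elsewhere in the genome.

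Other sites within 100 kb of the MALAT1 site numbered at most 11 in any library. Within 500 kb the DECOR numbers lay inside the REPAIR.t1 range. Within 100 kb of the MALAT1 site there were 1 and 2 other sites in the DECOR libraries, 3 to 11 in dCas13d-ADAR libraries, 3 to 5 in REPAIR.t1 libraries and 0 in each REPAIRv2 library. Within 500 kb the numbers were 26 and 32 for DECOR, 47 to 59 for dCas13d-ADAR, 26 to 39 for REPAIR.t1 and 1 to 2 for REPAIRv2. Chromosome 11 as a whole held 358 and 405 DECOR sites, 394 to 424 dCas13d-ADAR sites and 271 to 331 REPAIR.t1 sites per library. The numbers near MALAT1 were not tested or compared with equal stretches elsewhere on the chromosome, so they do not show the region as sparse. None of the 3 distinct other DECOR sites within 100 kb was shared by both DECOR libraries. Of all positions in either DECOR list, 22.2% were shared, so 3 sites are too few to set this region apart. Within 500 kb, 9 of the 49 distinct other DECOR sites were shared. The next positions that both listed lay 204546 bases below the MALAT1 site (chr11:65063044) and 1139845 bases above it (chr11:66407435).

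In level, the MALAT1 site was a little above the middle of the DECOR lists. In replicate 1 its level of 0.273 exceeded 73.8% of the 5516 listed sites, against a list median of 0.211. In replicate 2 its level of 0.231 exceeded 59.2% of the 5855 listed sites, against a list median of 0.208. The 2 DECOR libraries shared 2067 positions, 22.2% of the 9304 that either listed. At these positions the mean level over both libraries ran from 0.0718 to 0.779 with a median of 0.214, and 705 of them (34.1%) had a mean above the 0.252 of the MALAT1 site. The levels of the 2 libraries at the MALAT1 site differed by 0.042, close to the median difference of 0.0421 over the 2067 positions. At 17 positions both DECOR libraries gave a level of at least 0.5, and the MALAT1 site was not among them.

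**Figure D2:**
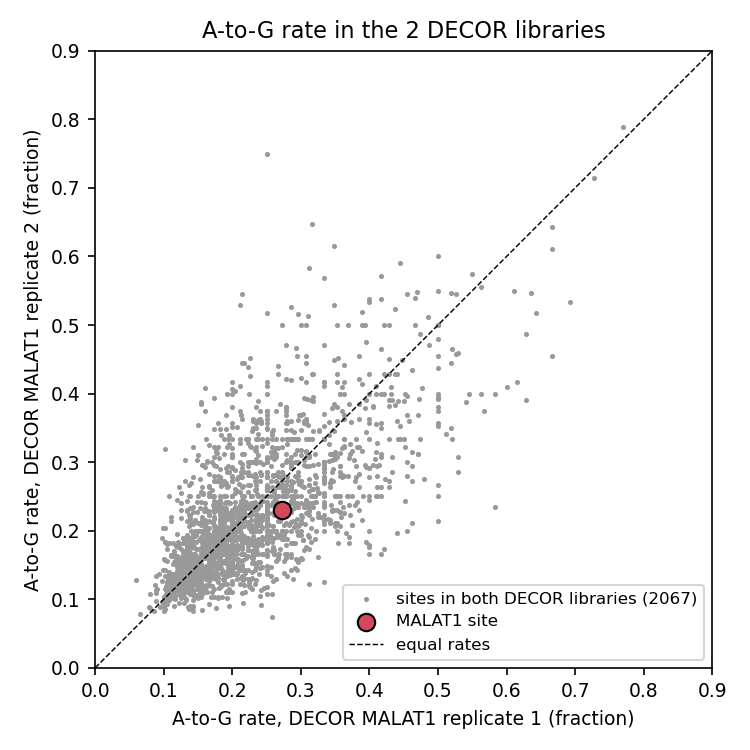
A-to-G rate (fraction) in DECOR MALAT1 replicate 1 (x axis) and replicate 2 (y axis) at the 2067 positions listed by both (grey points), with the MALAT1 site in red and a dashed line of equal rates. The MALAT1 site, at 0.273 and 0.231, lies inside the main cloud of points and below the highest mean level of 0.779.

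The MALAT1 site stood far from other listed sites. The nearest other position in any list was 25860 bases from the MALAT1 site, whereas the median of this distance over the 1972 sites listed by both DECOR libraries alone was 28 bases. Of these 1972 sites, 25 (1.27%) were farther from their nearest listed position. The MALAT1 site was among 44 (2.23%) that had no other listed position within 10 kb. Counting DECOR lists alone, the nearest other position was 26721 bases away, against a median of 55.5 bases, and 81 sites (4.11%) were farther. The distance describes 1 site and was not tested.

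**Figure D3:**
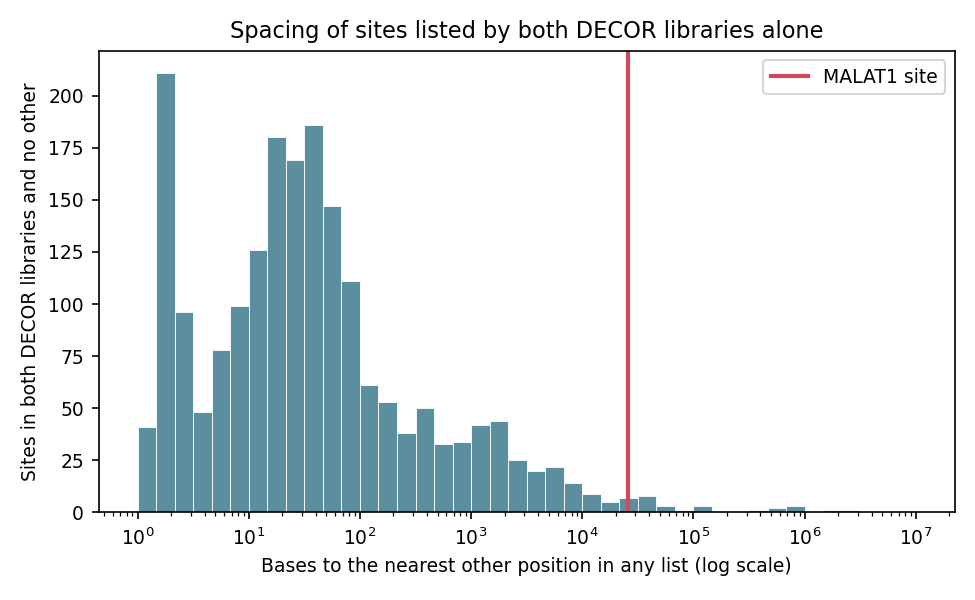
Distance in bases (log scale, x axis) from each of the 1972 sites listed by both DECOR libraries and no other library to the nearest other position in any list, as a histogram of the number of sites (y axis). The red line marks the MALAT1 site at 25860 bases, far to the right of the median of 28 bases.

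MALAT1 was not a place where DECOR sites were dense. Of the 7313 windows, 1621 had a site in both DECOR libraries, and in 971 of these (59.9%) the DECOR library with fewer sites had 1. Exactly 1 site in each DECOR library, as in the MALAT1 window, was found in 460 (28.4%). At least 5 sites in both DECOR libraries were found in 135 windows, and the highest number in the library with fewer was 52. A site in both DECOR libraries with no site of another editor in the window, as for MALAT1, was found in 284 windows (17.5% of the 1621).

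**Figure D4:**
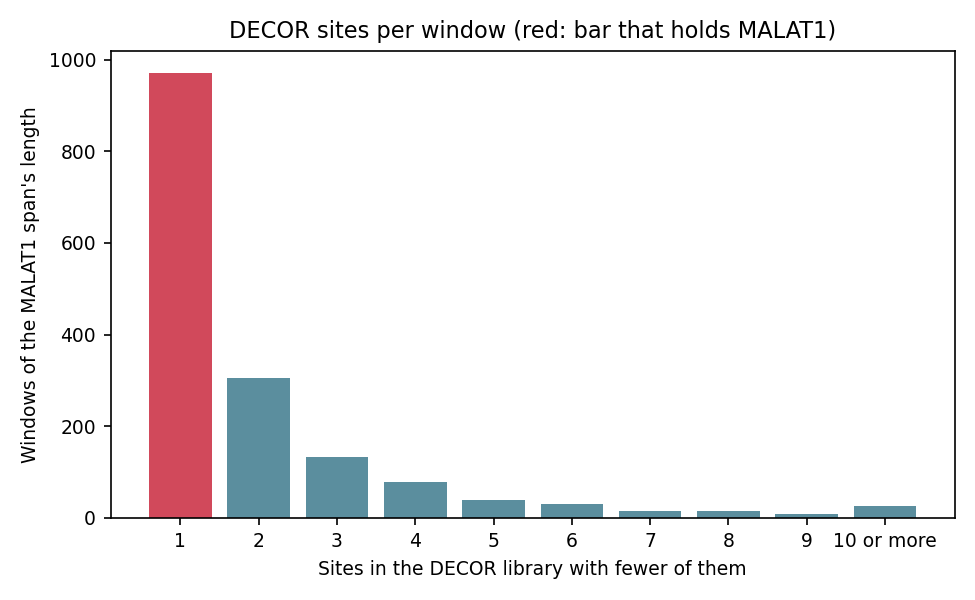
Number of windows of 8708 bases (y axis) by the number of listed sites in the DECOR library with fewer of them (x axis), over the 1621 windows with a site in both DECOR libraries. The red bar, 971 windows with 1 site, holds the MALAT1 window.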

How the data were processed

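The authors deposited 1 list per library with chromosome, position and A-to-G rate, a fraction, per the file headers. The trimming tool cutadapt, the aligner STAR 2.6.1b and the builds hg19 and GRCh37 are named in the submitters' processing notes, which do not say how each was used. How sites were called, and with what minimum coverage, is not given in the sources used here. The lowest level in any list was 0.0597.

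Sites inside the 2 spans were counted per library, as a number and as a share of the library's list. Exact permutation tests compared the means over every arrangement of the libraries, with a two-sided p of 2 times the smaller tail. Spans are inclusive, and whether positions are counted from 0 or 1 is not stated. The libraries are the units of these tests, and differences between them may be technical. In the main tests of numbers of sites, all values within each compared set were equal, so these p-values measure no spread. A limma test of levels at the 25 sites listed in all DECOR and dCas13d-ADAR libraries had been planned; it was not run, since none lies in a span. The genes, spans and tests were chosen with earlier results of these data known. By the rule for named sites, every site in a span is named; the flanking positions were named after their values were seen. No pairing of replicate numbers is given by the labels. Alternatives were minimum levels, wider spans, sites in both libraries of a group, fewer comparison libraries, each library left out and the replicate number as a block. For the window count, windows of the NEAT1 span's length were also used. Python 3.11.15, numpy 2.4.6, pandas 2.3.3 and matplotlib 3.10.9 were used.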

Additional observations from a re-analysis of the deposited data

How the results depend on the processing

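The difference of 1 MALAT1 site per library was the same with levels of at least 0.1 or 0.2, sites in both libraries of a group, a span widened by 1000 bases, fewer comparison libraries and any 1 library left out. This followed from the values, since the site's levels were above 0.2 and no other listed site lay within 1000 bases of the span. In each of these settings the exact permutation p was the smallest the design allows. It depended only on the number of libraries and on how they were permuted, and does not measure stability. It was 0.022 with all 14 libraries, 0.0256 without 1 library of another editor, 0.0408 with the replicate number as a block, 0.0444 without the REPAIRv2 libraries, 0.0714 against NT libraries alone (difference 1) and 0.154 without either DECOR library (difference 1). At a level of at least 0.25, an alternative chosen after seeing the data, replicate 2 lost the site, and the difference was 0.5 (exact permutation p = 0.286). The share of the list was 0.0176 percentage points higher in DECOR libraries, 0.0171 to 0.0181 without either DECOR library (exact permutation p = 0.154), and 0.0313 at a level of at least 0.2, where the lists are shorter. NEAT1 stayed at 0 under each alternative. Windows with more sites in both DECOR libraries than in all others numbered 496, 315 at a level of at least 0.2 and 387 to 497 otherwise. The alternatives of the limma test were not run. At the 609 sites in all dCas13d-ADAR and REPAIR.t1 libraries, deviations of same-numbered libraries correlated at -0.0415 to 0.0551 over 6 pairs of groups, so the numbers were not taken as pairs.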
